A study of Mus musculus with 12 samples.

Results

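The genes described here mark the macrophages of the lung. They were chosen by symbol, as Marco, Siglecf, Chil3, Mrc1, Pparg, Ear2, Cd68, C1qa, C1qb and C1qc, and 9 of these 10 were found among the 30399 genes of the table. Ear2 was not analysed here. Poly-A RNA sequencing of whole mouse tissue compared 7 tumors with 5 normal lungs, in a study on making mouse lung cancer models by nonviral CRISPR/Cas9 mutagenesis. The labels give each sample only its tissue, normal lung or tumor. They name no strain, age, edited gene, guide or delivery route for any sample, and the tumors are known here only as products of that CRISPR/Cas9 work. Titles carry a number, and tumors 3 and 4 share 159 while tumors 5, 6 and 7 share 201, so the 7 tumors have 4 distinct numbers. The meaning of that number is not given, and p-values therefore measure the spread between these samples, which may come from fewer animals than samples. Of the 5 normal lungs 4 expressed Y-linked genes, against 1 of 7 tumors, so sex and tissue are largely confounded. The titles of tumors 1 and 7 name the trachea, those of tumors 3, 4, 5 and 6 the lung, and that of tumor 2 no site.

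Macrophages are phagocytes that every organ keeps as residents. In the lung, alveolar macrophages live in the air spaces, where they take up surfactant, dust and microbes, and they depend on the growth factor GM-CSF and on the nuclear receptor PPAR gamma. Mouse alveolar macrophages carry the sialic acid-binding lectin Siglec-F and the scavenger receptor MARCO and make much of the chitinase-like protein Ym1, the product of Chil3. Interstitial macrophages live in the tissue between airspace and vessel, lack Siglec-F and make complement C1q, the recognition molecule of the classical complement pathway, which is built from the products of C1qa, C1qb and C1qc. CD206, the mannose receptor encoded by Mrc1, is found on both, and CD68 is a lysosomal glycoprotein of macrophages in general.

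The start regions of 5 of these genes are shown because they head the 2 groups whose values parted in the tumors, the alveolar genes Marco, Siglecf and Chil3 and the C1q chains. Each is the stretch of 250 bases before the RefSeq start site in the GRCm38.p6 build, read 5′ to 3′ on the strand of the gene, at chr1:120505025-120505274 (minus strand), chr7:43351091-43351340 (plus), chr3:106167565-106167814 (minus), chr4:136886201-136886450 (minus) and chr4:136892915-136893164 (minus). Capitals mark GAGGAA, or its reverse complement, a core that the macrophage transcription factor PU.1 can bind.
Marco: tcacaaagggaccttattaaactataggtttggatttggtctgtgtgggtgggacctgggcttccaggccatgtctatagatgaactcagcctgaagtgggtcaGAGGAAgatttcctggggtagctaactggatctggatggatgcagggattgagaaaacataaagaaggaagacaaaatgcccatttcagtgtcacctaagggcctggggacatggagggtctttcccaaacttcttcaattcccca
Siglecf: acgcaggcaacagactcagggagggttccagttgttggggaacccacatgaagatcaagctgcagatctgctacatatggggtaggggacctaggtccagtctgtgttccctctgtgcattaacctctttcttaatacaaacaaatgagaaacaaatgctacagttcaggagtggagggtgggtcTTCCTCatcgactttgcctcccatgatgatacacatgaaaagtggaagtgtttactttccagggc
Chil3: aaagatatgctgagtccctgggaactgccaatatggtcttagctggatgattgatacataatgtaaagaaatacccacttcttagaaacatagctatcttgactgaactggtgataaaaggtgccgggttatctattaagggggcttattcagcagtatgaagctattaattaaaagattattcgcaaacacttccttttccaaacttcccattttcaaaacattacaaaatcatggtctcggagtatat
C1qb: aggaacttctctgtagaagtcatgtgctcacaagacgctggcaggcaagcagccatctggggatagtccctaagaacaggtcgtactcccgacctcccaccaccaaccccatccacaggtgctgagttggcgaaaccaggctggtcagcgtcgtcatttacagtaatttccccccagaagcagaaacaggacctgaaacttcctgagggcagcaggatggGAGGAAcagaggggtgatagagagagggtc
C1qc: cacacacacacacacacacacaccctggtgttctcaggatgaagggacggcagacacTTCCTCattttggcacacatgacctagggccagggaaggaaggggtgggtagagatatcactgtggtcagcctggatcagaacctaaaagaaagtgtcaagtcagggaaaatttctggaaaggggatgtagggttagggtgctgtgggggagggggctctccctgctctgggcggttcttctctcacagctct
C1qb and C1qc lie side by side on chromosome 4. The letters GAGGAA stood on either strand in at least 1 start region of 7 of the 8 tested genes with a RefSeq entry, and in 23.4% of all 32536 start regions of the same length. Their base nearest the start site lay 141 bases before it in Marco, 60 in Siglecf, 25 in C1qb and 188 in C1qc, and Chil3 held none. The Chil3 region held TGCTGA, part of the site that MAF factors of macrophages bind, at 2 places, 1 on each strand, and the C1qb region at 1, against at least 1 in 16.1% of all regions. Mrc1 held GAGGAA at 3 places, and Cd68 and 1 of the 3 Pparg start sites at 1. These matches describe letters and not bound sites. The share of 23.4% counts single start regions, whereas 7 of 8 counts genes, with Pparg included through any of its 3 regions. Ear2, left out of the 8, had a start region without GAGGAA.

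Between 11126432 and 17032234 reads were assigned to genes in the normal lungs and between 13093843 and 24217633 in the tumors. Values are normalized counts, that is reads divided by a size factor per sample, and 3 reads correspond to at most 4.85 in normal lung and 3.57 in tumor. Differences are log2 fold changes of value + 1, tumor minus normal lung, with their standard error (SE). Calls of lower or higher rest on limma over all 23674 genes tested, with a Benjamini-Hochberg adjusted p under 0.05 and a difference no smaller than 1 in either direction. Markers of alveolar type 2 cells, the surfactant-making cells of the alveolus, summed to 146946 to 225501 in the normal lungs and to 743 to 2657 in the tumors, and all 6 were called lower.

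Of the 9 macrophage genes, 6 were called lower in tumor and none higher. Of all genes tested, 24.5% were called lower and 24.0% higher. The 6 were Chil3, Siglecf, Marco, Mrc1, Pparg and Cd68, with log2 fold changes from -8.68 to -1.69, whereas the 3 C1q chains passed no test in either direction. The median over the 9 genes was -1.87, against 0.04 over all genes tested. In 2 of the 9, Siglecf and Chil3, every tumor lay below every normal lung, as was the case for 18.4% of all genes. In bulk tissue, fewer cells of a type and less RNA per cell cannot be told apart.

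**Figure D1:**
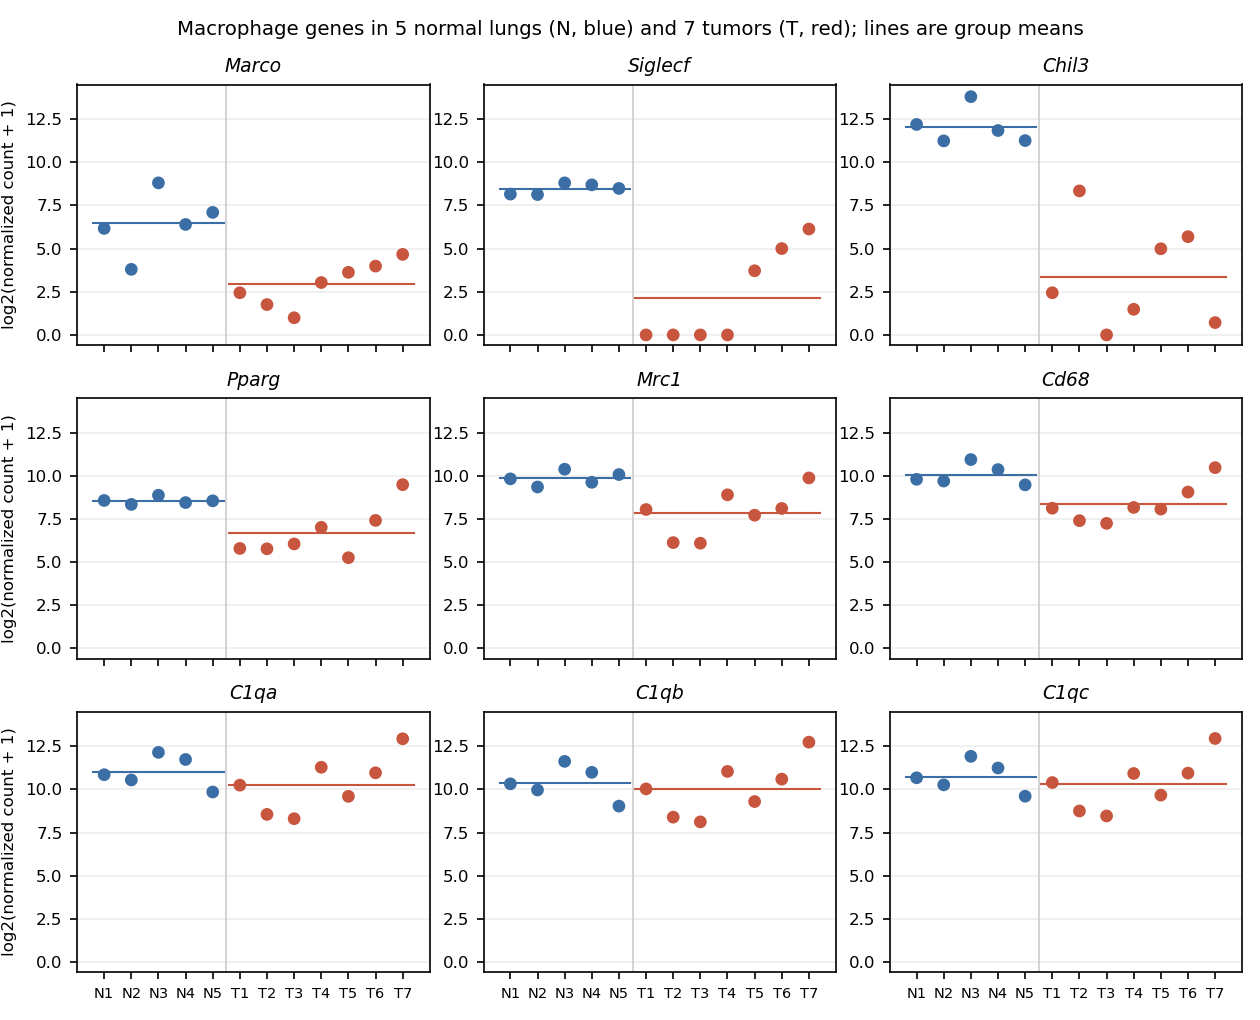
Normalized counts of the 9 macrophage genes on a log2(value + 1) axis, 1 point per sample, for 5 normal lungs (N, blue) and 7 tumors (T, red), with lines at the group means of the log2 values. Siglecf and Chil3 separate the groups fully, whereas the points of the C1q chains overlap and tumor 7 is the highest of all samples for each chain.

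Siglecf, the Siglec-F lectin of alveolar macrophages and eosinophils, stood at 284, 278, 446, 412 and 356 in normal lungs 1 to 5. In tumors 1 to 7 it stood at 0, 0, 0, 0, 12.1, 31.0 and 69.2. It was thus listed at 0 in the tumors numbered 153, 156 and 159 and carried reads in the tumors numbered 201 only, where 15, 46 and 108 reads were counted. The change was -6.33 (SE 1.10, adjusted p = 2.29e-04 in limma), and the tumor mean was 0.0452 of the normal mean. Its spread among the normal lungs was narrow, with a mean of 355 ± 74.9 (SD, n = 5).

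Chil3 encodes Ym1, a secreted chitinase-like lectin that monocytes and neutrophil precursors also make. By group median it was the highest of the 9 genes in normal lung per kilobase of exon, and its normalized counts there were 4663, 2409, 14221, 3654 and 2441. The tumors held 4.43, 323, 0, 1.80, 30.7, 50.5 and 0.640. Normal lung 3 was 5.90 times normal lung 2, yet the lowest normal lung still lay above tumor 2, the highest tumor. The change of -8.68 (SE 1.24, adjusted p = 4.57e-05 in limma) was the largest among the 9 genes. Chil4, a close relative of Chil3 in sequence, was listed at 0 in 6 of 7 tumors and at 0 to 62.4 in normal lung, and reads of the 2 genes may not be fully separable.

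Tumor 2, with a Chil3 value of 323, was also the tumor with the highest sum of neutrophil markers. Its Ngp, a granule protein of neutrophil precursors, stood at 3270.1 and its S100a9, a calcium-binding protein of neutrophils, at 2847. The 8 neutrophil markers summed to 8148 there, to 15.9 to 360 in the other tumors and to 2116 to 5952 in the normal lungs. Ngp, S100a8, S100a9 and Camp of tumor 2 exceeded every normal lung, whereas its Retnlg (238), Mmp8 (54.8) and Ly6g (1.19) lay within the normal range. Its Csf3r, at 142, lay below every normal lung and below the 291 of tumor 7. Of the 8 markers, 6 were called lower in tumor by limma and 4 by edgeR, which did not call S100a9 (adjusted p = 0.271). Ngp was at 0 in tumor 7, and 5 of the 8, S100a8 and Ly6g among them, were at 0 in tumor 3, and Ly6g was at 0 in tumors 1, 4, 5 and 6 as well. Chil3 was likewise at 0 in tumor 3 and rested on 1 read in tumor 7. The part of neutrophils in the Chil3 values was not tested.

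Marco, a class A scavenger receptor that binds bacteria and particles, was the lowest and the most uneven of the alveolar genes in normal lung, with 70.9, 12.9, 446, 83.2 and 136. Its tumor values were 4.43, 2.38, 0.991, 7.18, 11.3, 14.8 and 24.3, from 1 to 38 reads. Of the 7 tumors, 5 lay below every normal lung and tumors 6 and 7 lay above normal lung 2 alone. Marco was called lower (-3.52, SE 0.80, adjusted p = 0.00185 in limma). The normal mean of 149.7 ± 171 (SD, n = 5) was carried by normal lung 3, and the tumor mean was 9.35 ± 8.22 (SD, n = 7).

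Pparg, the lipid-sensing nuclear receptor that drives the alveolar macrophage programme and also that of fat cells, was even in normal lung at 379, 324, 468, 348 and 374. In the tumors it stood at 54.4, 53.6, 65.4, 128, 37.2, 169.8 and 716. In 6 tumors it was below every normal lung, and in tumor 7 it was above them all. It was called lower by limma (-1.87, SE 0.59, adjusted p = 0.0133), but edgeR on the whole reads gave -1.05 with an adjusted p of 0.201. Tumor 7 also held the most fat cell and heart muscle RNA. Its Adipoq, the fat cell hormone adiponectin, stood at 1928, its lipid droplet gene Plin1 at 1481 and its heart muscle myosin Myh6 at 18022, against 431, 258 and 2210 at most in any other sample. The 5 fat cell markers summed to 11555 in tumor 7, to 1378 to 2747 in the other tumors and to 4797 to 6636 in normal lung. Of the 5, 1 was called lower (Adipor2), and Lep was at 0 in tumor 2. Adipor2 made up most of this sum in every sample but tumor 7, as with 4781 of 4797 in normal lung 2. The sums therefore do not rank the other samples by the remaining fat cell markers. Tumors 4 and 6 exceeded normal lungs 2 and 4 in Adipoq, Plin1 and Cfd, whereas normal lung 3 exceeded both tumors in Adipoq and Plin1. The 5 heart markers summed to 33146 in tumor 7, to 129 to 2121 in the other tumors and to 182 to 3528 in normal lung. None of them was called, and Myh6 was at 0 in tumor 3. The part of fat or heart tissue in the values of tumor 7 was not tested. Without tumor 7, edgeR called lower all 6 genes that limma had called, and 25.1% of all genes tested. This fit was chosen after the data were seen.

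Mrc1, the mannose receptor CD206, read 904, 653, 1332, 787 and 1075 in normal lung and 263, 69.1, 67.4, 476, 209.5, 275 and 939 in tumor. All tumors but tumor 7 lay below the lowest normal lung. The change was -2.01 (SE 0.56, adjusted p = 0.00708 in limma). Tumors 2 and 3, at 69.1 and 67.4, were the lowest, and tumor 7 was 13.9 times tumor 3.

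Cd68, which stands here for macrophages in general, read 887, 828, 1962, 1313 and 710.5 in normal lung and 278, 168, 151, 286, 268, 532 and 1419 in tumor. Again 6 of 7 tumors lay below every normal lung, and tumor 7 exceeded 4 of the 5. Limma called it lower (-1.69, SE 0.48, adjusted p = 0.00787). With edgeR it was not called, at -1.31 and an adjusted p of 0.0545. By edgeR, 4 of the 9 genes were lower, Marco, Siglecf, Chil3 and Mrc1, against 21.1% of all genes tested.

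**Figure D2:**
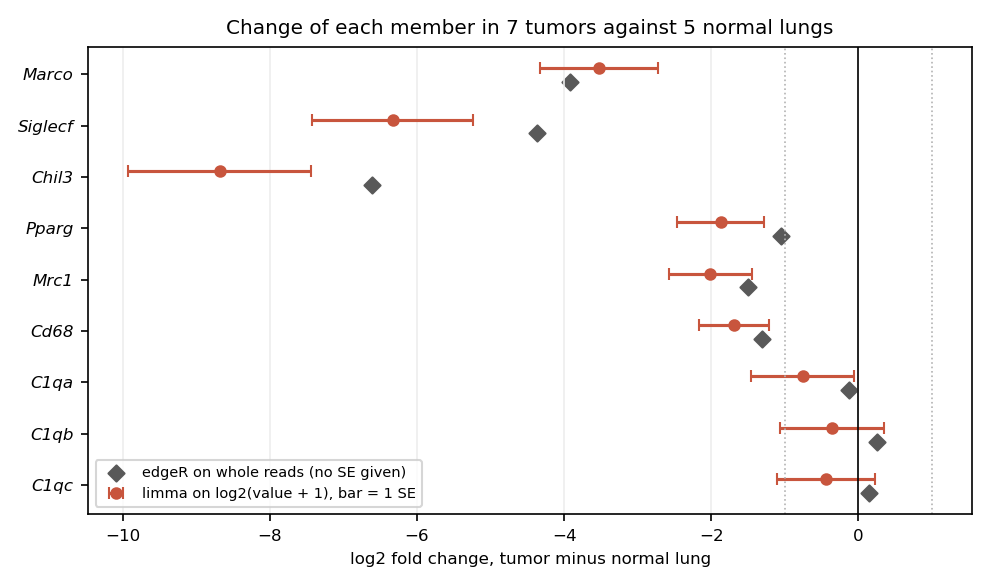
Log2 fold change of each macrophage gene, 7 tumors minus 5 normal lungs. Circles with bars give the limma estimate and 1 standard error, diamonds give edgeR on whole reads, and dotted lines mark a log2 fold change of 1 in size. Chil3 and Siglecf lie farthest to the left at -8.68 and -6.33, and the C1q chains lie near 0 by both tools.

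The C1q chains kept high values in many tumors. C1qa, the A chain, read 1842, 1492, 4516, 3394 and 919.7 in normal lung and 1212, 374, 314, 2484, 773, 1989 and 7788 in tumor. Tumors 2, 3 and 5 were below every normal lung and tumor 7 was above them all. The difference was -0.76 (SE 0.70, 95% interval -2.27 to 0.76, adjusted p = 0.366 in limma).

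C1qb, the B chain, read 1278, 999, 3146, 2027 and 522 in normal lung and 1041, 335, 277, 2102, 627, 1542 and 6805 in tumor, a difference of -0.36 (SE 0.71, interval -1.88 to 1.16, adjusted p = 0.679 in limma). C1qc, the C chain, read 1628, 1226, 3854, 2414 and 776 and 1345, 429, 351, 1935, 811, 1964 and 7889.6, a difference of -0.44 (SE 0.67, interval -1.87 to 0.99, adjusted p = 0.584 in limma). For both, tumors 2 and 3 lay below every normal lung and tumor 7 above. All 3 intervals span 0 and reach below -1, the size needed for a call, so an unchanged level was not shown. The 3 chains varied together, with Pearson's r of 0.995 to 0.999 between chains over the 7 tumors, as a description of 7 libraries that share tissue content.

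Per kilobase of exon, the order of the group medians in normal lung was Chil3, C1qa, C1qb, C1qc, Cd68, Mrc1, Siglecf, Pparg and Marco. In the tumors it was C1qa, C1qb, C1qc, Cd68, Mrc1, Pparg, Marco, Chil3 and Siglecf. The per-kilobase median of Chil3 was 2239 in normal lung and 2.72 in tumor, and that of C1qa was 1771 and 1165. C1qa, C1qb, C1qc, Cd68, Mrc1, Pparg and Marco thus kept their relative order, and Chil3 and Siglecf moved to its end. Siglecf and Pparg, neighbours in normal lung at 128 and 127, were not separated by the spread of the samples, and the values of C1qb and C1qc overlapped in both groups.

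Each gene was then set against Cd68 of the same sample, to ask which had changed more or less than a general macrophage gene. Chil3, Siglecf and Marco were lower relative to Cd68, that is 3 of 8, where 8.01% of all genes were. The differences were -6.99 for Chil3 (SE 0.97, adjusted p = 1.29e-07 in limma), -4.64 for Siglecf (SE 0.75, adjusted p = 2.41e-06) and -1.83 for Marco (SE 0.69, adjusted p = 0.0195). Noise in Cd68 enters every gene on this scale, so errors are shared between genes. The p-values and intervals of this fit may therefore be too optimistic, and the same holds for the other reference genes used below. For Chil3 and Siglecf every tumor was below every normal lung on this scale too, as for 3.88% of genes. In limma, Marco was no longer called without normal lung 3 (-1.47, adjusted p = 0.0796) or without normal lung 5 (-1.53, adjusted p = 0.0698).

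Mrc1 and Pparg moved with Cd68 within wide limits. Their differences relative to Cd68 were -0.32 (SE 0.56, interval -1.46 to 0.82, adjusted p = 0.621 in limma) and -0.18 (SE 0.58, interval -1.35 to 0.99, adjusted p = 0.788).

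C1qb and C1qc were higher relative to Cd68, by 1.33 (SE 0.56, adjusted p = 0.0339 in limma) and 1.25 (SE 0.55, adjusted p = 0.0419), and C1qa stood at 0.93 (SE 0.56, adjusted p = 0.132). Cd68 itself was lower in tumor, and on this scale 58.2% of all genes were called higher and the median over all genes was 1.73, so the C1q chains gained on Cd68 by less than the median gene did. Both calls were lost when any 1 of normal lungs 1, 2, 4 or 5 or tumors 1 or 4 was left out, with adjusted p from 0.0539 to 0.102, and that of C1qc also without tumor 5 or tumor 6.

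As a linear ratio, the summed C1q chains over Cd68 were 5.35, 4.49, 5.87, 5.97 and 3.12 in normal lungs 1 to 5. They were 12.9, 6.77, 6.25, 22.8, 8.26, 10.3 and 15.8 in tumors 1 to 7. The groups did not overlap in this ratio, and the lowest tumors, 3 and 2, lay just above the highest normal lung. For C1qb and C1qc taken singly every tumor was above every normal lung relative to Cd68, as for 17.2% of all genes, and for C1qa tumors 2 and 3 fell within the normal range.

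**Figure D3:**
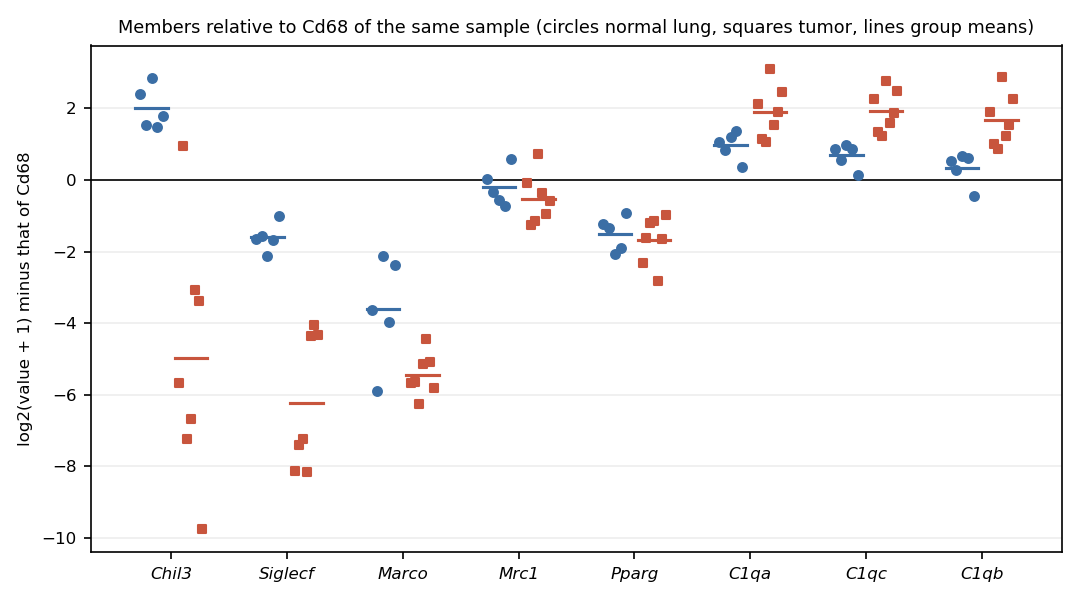
Log2(value + 1) of each macrophage gene minus that of Cd68 in the same sample, for 5 normal lungs (circles) and 7 tumors (squares), with lines at group means. Chil3 and Siglecf drop below all normal lungs, Mrc1 and Pparg overlap, and C1qb and C1qc sit above the normal lungs in every tumor.

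The choice of Cd68 as reference mattered for the middle of this order. Against Csf1r, the receptor for the macrophage growth factor CSF1, and against Adgre1, the F4/80 antigen, Chil3 and Siglecf stayed lower (-5.45 and -3.10 against Csf1r, adjusted p = 2.70e-06 and 6.44e-04 in limma), as were 2.11% of all genes against Csf1r and 1.28% against Adgre1. Marco was then near the reference, at -0.30 and -0.33. In limma all 3 C1q chains were higher against both, C1qa by 2.47 (adjusted p = 0.00214) and 2.44 (adjusted p = 0.0377). On these scales 80.4% and 71.9% of all genes were called higher, with medians of 3.27 and 3.24, so each chain lay below the median gene. Csf1r itself ran from 2199 to 3119 in normal lung and from 57.5 to 1773 in tumor, and Adgre1 from 290 to 480 and from 3.97 to 462.

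The tumors differed among themselves by more than the normal lungs did for Cd68, Mrc1, Pparg and the C1q chains. Between the lowest and the highest tumor the ratio was 9.42 for Cd68, 13.9 for Mrc1, 19.2 for Pparg and 24.8 for C1qa, against 2.76, 2.04, 1.45 and 4.91 among normal lungs. Tumor 3 was the lowest for Marco, Mrc1, Cd68 and the C1q chains, and tumor 7 the highest for all of these. Tumors 3 and 4 share the number 159 but not these levels, with C1qa at 314 in one and 2484 in the other and Mrc1 at 67.4 and 476. Tumors 5, 6 and 7, which share 201, held Siglecf at 12.1, 31.0 and 69.2 and C1qa at 773, 1989 and 7788. Siglecf over Cd68 was nearly even in these 3, at 0.0453, 0.0583 and 0.0487, below the 0.227 to 0.502 of normal lung.

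The same 3 tumors carried the most transcripts of conventional dendritic cells of type 1, a cross-presenting cell type. Clec9a, a receptor for dead cells on these cells, stood at 4.43, 25.0, 8.92, 19.8, 328, 1671 and 3905 in tumors 1 to 7, and the chemokine receptor Xcr1 at 0, 2.38, 0, 1.80, 112, 508 and 1376. The 7 dendritic cell markers summed to 9896 in tumor 7, to 595 to 3902 in the other tumors and to 3880 to 4408 in normal lung. Of the 7, 4 were called lower by limma and 1 by edgeR, and Clec9a was not called by edgeR (adjusted p = 0.640). Xcr1 was at 0 in tumors 1 and 3, Siglech in tumors 2 and 3 and Cd209a in tumors 2 and 5. Eosinophils carry Siglec-F too, and 5 of 5 tested markers of them were called lower. The 6 markers summed to 145 to 356 in normal lung and to 1.98 to 83.9 in tumor. The tumor sums were highest in tumor 7 (83.9) and tumor 6 (24.3), followed by 21.6 in tumor 4, and tumor 5 stood at 4.04. Of the tumors with Siglecf reads, tumor 5 had Prg2, Il5ra and Prg3 at 0, tumor 6 had Epx and Prg3 at 0 and tumor 7 had Epx at 0. Tumors 1 to 4, without Siglecf reads, had 4, 3, 4 and 2 of the 6 at 0. Epx and Prg3 were low in normal lung too, with means of 2.24 and 1.31. The part of eosinophils in the Siglecf values was not tested.

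**Figure D4:**
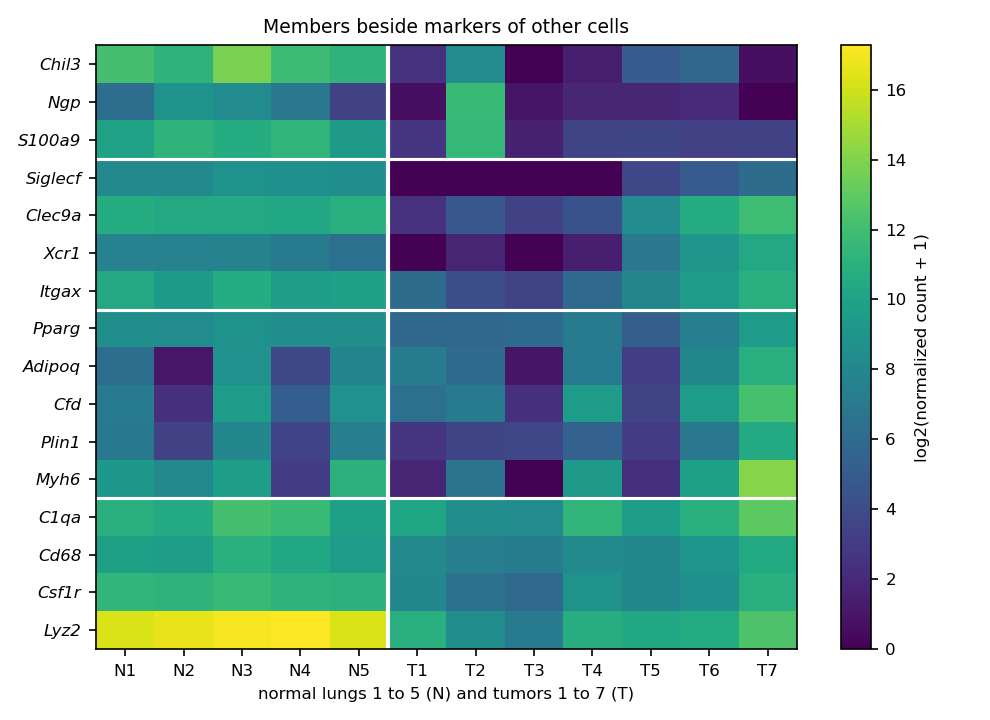
Heat map of log2(value + 1) of macrophage genes beside markers of neutrophils (Ngp, S100a9), dendritic cells (Clec9a, Xcr1 and Itgax, the last found on alveolar macrophages too), fat (Adipoq, Cfd, Plin1), heart muscle (Myh6) and macrophages in general (Csf1r, Lyz2), in 5 normal lungs (N) and 7 tumors (T). Among the tumors, Ngp and S100a9 are highest in tumor 2, Siglecf and dendritic genes in tumors 5 to 7, and fat and heart genes in tumor 7. Siglecf stays below every normal lung in tumors 5 to 7, as do Clec9a and Itgax in tumor 5.

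Other genes of the alveolar macrophage programme were lower in most cases. Of 14 tested, 9 were called lower and 1 higher, with a median of -2.64. Cd36, a fatty acid and lipoprotein receptor, fell from 11253 ± 1066 (SD, n = 5) to 641 ± 896 (SD, n = 7), although it is also made by endothelial and fat cells. The GM-CSF receptor gene Csf2ra stood at -1.62 (SE 0.58), which limma called at an adjusted p of 0.0253 and edgeR did not call (adjusted p = 0.222), nor did limma without normal lung 3 (adjusted p = 0.0524). Lpl, the lipoprotein lipase, was called lower by limma (adjusted p = 0.0141), but not by edgeR (-0.99, adjusted p = 0.281). Bhlhe41, a transcription factor of the alveolar macrophage self-renewal programme that other cell types also use, rose from 865 ± 239 to 3844 ± 1851, by 2.05 (SE 0.31, adjusted p = 6.61e-05 in limma). By edgeR 5 of the 14 were lower and 1 higher.

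Among 16 genes of interstitial and resident tissue macrophages, 8 were called lower and 1 higher, with a median of -1.56. By edgeR 7 were lower and 1 higher, with a median of -0.75. For comparison with this and the other lists, limma called 24.5% of all genes tested lower and 24.0% higher. Lyve1, a hyaluronan receptor shared with lymphatic vessels, changed by -4.04, and Selenop, a selenium carrier, by -3.12. Cbr2, a carbonyl reductase also made by epithelial cells of the airway, changed by -8.22 and Gas6, a ligand for the clearance of dying cells, by -1.41. Folr2, a folate receptor of resident macrophages whose exons overlap an antisense gene, rose by 1.20 (SE 0.36, adjusted p = 0.0109 in limma), from 26.5 ± 14.1 (SD, n = 5) to 57.3 ± 15.2 (SD, n = 7), and without normal lung 2 it missed the size limit at 0.96. Without tumor 7, limma called 11 of the 16 lower, and 26.4% of all genes tested.

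Of 15 tested genes of macrophages in general, 13 were lower and none higher, with a median of -2.80, and 8 by edgeR. Lyz2, lysozyme, which alveolar type 2 cells make too, fell by 6.64 and made up most of the summed level of this list in normal lung. That sum ran from 93290.1 to 179091 in normal lung and from 1229 to 23957 in tumor. In the tumors Lyz2 was the smaller part of the sum, at 134 to 5613. Cybb, the NADPH oxidase subunit of phagocytes, fell by 4.03. Spi1, which encodes PU.1, was lower by limma (-2.85, adjusted p = 0.0079), as was the protease gene Ctss (-2.53, adjusted p = 0.0109), and neither was by edgeR (adjusted p = 0.177 and 0.149). Of 10 monocyte genes, 8 were lower, 1 of them Chil3, and 1 higher, against 5 and 1 by edgeR. Ccr2, the receptor that draws monocytes from blood, changed by -5.86 and Ly6c2 by -5.24, Ace, which endothelium also makes, by -4.48, and Vcan, a proteoglycan made by stromal cells as well, rose by 2.92.

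The partners of C1q in the complement cascade were mostly lower. Of 16 tested, 11 were called lower and 1 higher, with a median of -2.37, and edgeR called 8 and 1. Serping1, the inhibitor of the C1 proteases, fell from 7459 ± 785 (SD, n = 5) to 987 ± 905 (SD, n = 7). The central component C3 was lower by limma (-3.93, adjusted p = 0.0142), and not by edgeR (adjusted p = 0.121). C1ra and C1s1, the proteases that C1q carries, ran from 768 to 1121 and from 452 to 691 in normal lung and from 7.93 to 420 and from 13.9 to 222 in tumor, so that every tumor lay below every normal lung while the C1q chains overlapped. Cd93, once described as a C1q receptor and abundant on endothelium, fell by 4.61. C2, the protease cleaved by activated C1s, was the gene that rose, though its exons overlap those of Gm20547 on the same strand, from 59.4 ± 5.65 to 169 ± 91.0, by 1.36 (SE 0.30, adjusted p = 0.00157 in limma).

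PPAR gamma acts as a heterodimer with RXR, and of 16 partners and targets 6 were called lower and 2 higher (4 and 2 by edgeR), with a median of -0.62, the closest to 0 of the macrophage lists. The partner gene Rxra fell by 1.42 (SE 0.23, adjusted p = 1.41e-04 in limma). The coactivator gene Ppargc1a rose by 1.14, a call that was lost without tumor 7 (0.99), without tumor 1 (0.95) or without normal lung 4 (0.95). Of 12 scavenger and mannose receptors, a mixed group set beside Marco and Mrc1, 6 were lower and 2 higher by limma, with a median of -1.63. By edgeR 5 were lower and 2 higher, with a median of -0.86. Clec7a, the beta-glucan receptor, changed by -4.09, the collectin Colec12 by -4.58 and the Mrc1 paralog Mrc2 by -2.16, whereas Scara3 rose by 2.25 and Stab2 by 1.30, a call lost without normal lung 4 (1.05, adjusted p = 0.0623 in limma).

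The relatives of Siglecf and Chil3 were lower too. Of 8 other sialic acid-binding lectins, 7 were lower and none higher (3 by edgeR), with Siglec1, the sialoadhesin of macrophages, at -2.52 and Cd33 at -2.84. Cd22 and Siglecg, lectins of B cells, were lower by limma (-4.57 and -5.14) and not by edgeR (adjusted p = 0.0548 and 0.159), and all 6 lymphocyte markers were lower by limma, but 4 by edgeR, which did not call Cd3e (adjusted p = 0.164) or Nkg7 (adjusted p = 0.0599). Of 6 tested chitinase family genes, 5 were lower by limma and 4 by edgeR. Chil1 fell from 16335 ± 5112 (SD, n = 5) to 76.8 ± 54.6 (SD, n = 7), Chia1, an acidic chitinase of type 2 cells, from 940.0 ± 212 to 2.85 ± 2.70, and Chil5 changed by -3.51. Chid1 was called at -1.10 (adjusted p = 0.0337), a call lost by edgeR (-0.88) and without any 1 of normal lungs 1 to 4 or tumors 2 to 4 (-1.15 to -0.76). Of the ribonuclease family to which Ear2 belongs, Ear6 was low throughout, at 0 to 43.6 in normal lung and 0 to 1.28 in tumor, while Rnase4 fell by 5.46.

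**Figure D5:**
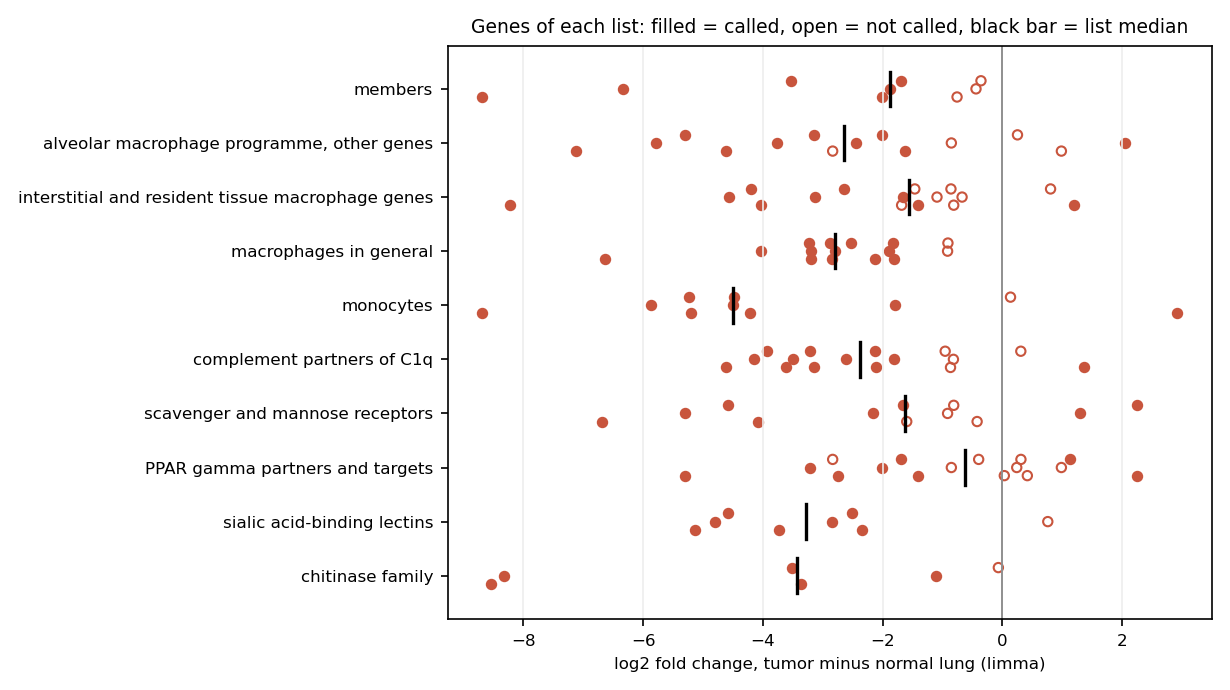
Log2 fold change in tumor against normal lung (limma) of every tested gene of each macrophage list, filled where called and open where not, with a black bar at the list median. The medians run from -4.49 for monocyte genes to -0.62 for the PPAR gamma list.

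Genes whose values followed the members most closely over the 7 tumors were found among 16955 genes with a mean of at least 16 in tumor, by Pearson's r of the log2 values and as a description only. For Marco these were Phlda1 (r = 0.992), the MHC class II gene H2-Eb1 (0.988) and 2900089D17Rik (0.987). For C1qa they were the macrophage lectin Clec10a (0.996), the RNA sensor Tlr7 (0.992) and Art2a-ps (0.987). For Cd68 they were Ly6e (0.997), Erp29 (0.994) and Cd4 (0.993). Among the members, Mrc1 followed C1qa (r = 0.978) and Cd68 followed C1qc (r = 0.952), whereas Chil3 followed none, with r from -0.390 with Mrc1 to 0.0236 with Siglecf.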

How the data were processed

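Poly-A RNA was sequenced from 5 normal lungs and 7 tumors. As deposited by the authors, the table holds a read count signal divided by a size factor for each sample, scaled neither to a fixed total nor by length, as the values themselves show. Every value was a whole multiple of its column's step (tolerance 0.01), which gave back the reads. The submitters' processing notes name featureCounts, DESeq2 and GRCm39, with no versions. Use of strand is not given in the sources used here. Symbols (29982 of 30399), exon lengths and overlaps came from GENCODE M21, and start regions from RefSeq, both GRCm38. No member overlaps another gene of the table, but the exons of Folr2, Gas6, Selenop, Csf1r, Ace, C2, Stab2, Chil5, Chid1, Clec9a and Myh6 do, so their counts are uncertain.

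The main test was limma 3.58.1 (R 4.3.3, lmFit and eBayes with trend) on log2(value + 1) of the 23674 genes with a mean of at least 1. A second fit subtracted Cd68 of the same sample. The alternatives included edgeR 4.0.16 (quasi-likelihood, TMM) and DESeq2 1.42.0 on the recovered reads. The plain limma, edgeR and DESeq2 fits of tumor against normal lung were tested on simulated data. The fits relative to a reference gene were not. None of the 31 pairs of libraries within a group was a duplicate.

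The members and lists were chosen with earlier results of these data known. Named are all members, up to 4 called genes per list with the highest mean, any called against most of its list, and for likeness the 3 highest correlations. Csf1r, Adgre1, C1ra, C1s1, Chil4, Ngp, Adipoq, Plin1, Myh6 and Xcr1 were named after their values were seen. Some genes that meet the rule are not reported here.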

Additional observations from a re-analysis of the deposited data

How the results depend on the processing

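The counts of members lower (6) and higher (0) in tumor were the same in limma under quantile normalization, equal column totals, other filters and pseudocounts, averaged or correlated same-numbered tumors, a Y-linked covariate (expressed in 4 of 5 normal lungs and 1 of 7 tumors), and without each sample, the trachea-titled tumors, or tumors 2 and 7. The covariate, the removal of tumors 2 and 7 and edgeR without tumor 7 were chosen after seeing the data. DESeq2 also called 6 lower, and edgeR 4. Equal totals moved the median of all genes from 0.04 to 0.23. The number of listed genes called lower, 102, ran from 95 to 112 when 1 sample was left out and was 73 by edgeR. The number of members changed relative to Cd68, 5, ran from 2 to 5 when 1 sample was left out, lowest without normal lung 5. C1qb turned positive with edgeR (0.25) and DESeq2 (0.19), as did C1qc (0.15 and 0.0880), none of them called. Relative to Csf1r or Adgre1 in place of Cd68, Mrc1 (1.22 and 1.19) and Pparg (1.36 and 1.33) turned positive and were not called, and Pparg relative to Cd68 ran from -0.32 to 0.0073 when 1 sample was left out, highest without tumor 5. The cause was not tested. Of 1649 values of 66 listed genes under the naming rule under alternatives, 63 were no longer called and 0 reversed. No paired analysis was possible because no title number is shared between a normal lung and a tumor. Depth limits Marco, Siglecf and Chil3 in tumors, where 3 reads correspond to values from 1.90 to 3.57, depending on the tumor.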

Other observations

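The C1q chains also differed in their proportions. Per kilobase of exon, C1qb over C1qa was 0.542 to 0.666 in the 5 normal lungs and 0.741 to 0.855 in the 7 tumors, with no overlap, and C1qc over C1qa was 0.383 to 0.476 and 0.420 to 0.617, with tumor 4 inside the normal range. This was seen in the data and not tested. How many other pairs of genes part the groups as fully was not counted. Of single genes, 18.4% had every tumor below every normal lung.

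Timd4, a receptor for dying cells on long-lived resident macrophages, was 842.8 in tumor 7, against 34.5 to 155 in normal lung and 1.19 to 62.0 in the other tumors. This gene was chosen after its values were seen.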
